A study of Rattus norvegicus with 19 samples.

Results

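Sez6l2 and its paralogs Sez6 and Sez6l were chosen by gene symbol, 3 genes of the 32623 in the count files, and followed across the 4 genotypes of a rat model of the 16p11.2 copy number variation. Sez6l2 lies inside the interval that is deleted or duplicated in these rats, between Sult1a1 and Spn on rat chromosome 1, and Sez6 and Sez6l lie outside it. The files carried them as ENSRNOG00000027098 (Sez6l2), ENSRNOG00000009350 (Sez6) and ENSRNOG00000025612 (Sez6l), and all 3 were among the 15440 genes that passed the filter on low counts and were tested. The comparisons ask how the level of Sez6l2 followed its number of copies and whether the paralogs moved when it changed. RNA of the hippocampus of male Sprague Dawley rats was sequenced in 19 libraries: 6 wt with 2 copies of the interval, 4 Del/+ with 1 copy, 5 Dup/+ with 3 copies, and 4 Del/Dup animals with the deletion on one chromosome and the duplication on the other, 2 copies in all. Sprague Dawley is an outbred stock, each rearrangement was made by CRISPR/Cas9 and is present in every cell of a carrier, and the groups of the study were littermates. The study calls the hippocampi adult, but the age at dissection is not given in the sources used here. For wt replicate 5 the labels disagreed, the description naming wt and the genotype field Dup/+, and it was counted as wt. Its Sez6l2 level of 553.8 counts-per-million (CPM, scaled for library size) lay within the range of the other wt libraries and below every Dup/+ library.

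The SEZ6 proteins (seizure-related gene 6, SEZ6-like and SEZ6-like 2) are single-pass membrane proteins of neurons. Their extracellular part is built of CUB and sushi domains, the latter being the short modules of complement regulators, and a short tail lies inside the cell. SEZ6 and SEZ6L are shed from the surface by the protease BACE1, and the family is known for roles in dendrite and synapse development, in the trafficking of kainate receptors and in restraint of complement on neurons. SEZ6L2 binds the cytoskeletal protein adducin and AMPA receptors, and is a target of autoantibodies in cerebellar ataxia.

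The windows just before the start of Sez6l2 and Sez6l are shown because the levels of these genes varied together among animals of the same genotype, as described below. Both come from RefSeq on the GRCr8 assembly, not from the rn6 assembly used for the counts. They hold the 250 bases before the annotated start on the plus strand, chr1:190987397-190987646 for Sez6l2 and chr12:49725080-49725329 for Sez6l, and are written 5′ to 3′ with the letters CCAAT or GGGCGG, on either strand, in capitals.
Sez6l2: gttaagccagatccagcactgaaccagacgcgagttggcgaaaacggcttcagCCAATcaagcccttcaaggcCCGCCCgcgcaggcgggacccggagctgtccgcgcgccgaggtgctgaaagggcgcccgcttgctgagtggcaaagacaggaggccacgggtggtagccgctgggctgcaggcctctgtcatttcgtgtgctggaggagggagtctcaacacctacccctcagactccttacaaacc
Sez6l: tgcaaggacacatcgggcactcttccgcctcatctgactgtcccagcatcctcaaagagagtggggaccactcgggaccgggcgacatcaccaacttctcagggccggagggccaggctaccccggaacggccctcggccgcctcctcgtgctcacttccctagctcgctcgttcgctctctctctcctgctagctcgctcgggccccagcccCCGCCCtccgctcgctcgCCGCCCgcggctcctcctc
The Sez6l2 window held CCAAT 1 time, on the strand shown, and GGGCGG 1 time, on the other strand. The Sez6l window held CCAAT 0 times and GGGCGG 2 times, both on the other strand. The motifs did not overlap. Of the 33469 RefSeq windows of the same length, 34% held CCAAT and 30.5% held GGGCGG on either strand. Bases G and C made up 63.2% of the Sez6l2 window and 68.4% of the Sez6l window, with 18 and 23 CG pairs against a median of 5. A matching run of letters is a description of the window and not a binding site. The window of Sez6 was not analysed here.

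The libraries held 16191192 to 38760645 reads on genes, of which 5640 to 22297 fell on Sez6l2, 4972 to 12377 on Sez6 and 7786 to 21945 on Sez6l. The spread between animals, not counting error, therefore set the precision: the biological coefficient of variation was 0.0878 for Sez6l2, 0.0578 for Sez6 and 0.102 for Sez6l. Reads aligned to more than 1 place took 40.1% to 47.6% of counted lines in wt and 45.1% to 50.5% in Dup/+, but 57.8% to 70.7% in Del/Dup and, in Del/+, 41.6% in replicate 4 and 63.9% to 76.3% in the other 3. All wt libraries were thus low and all Del/Dup libraries high in this share, so that the share and the genotype cannot be told apart in that comparison except through Del/+. In the comparisons of genotypes, a term for high against low share therefore rests on Del/+ replicate 4 against the other 3 Del/+ libraries. The 8 neuronal markers, none of them at 0, summed to 7672 to 8763 CPM in wt. Del/+ libraries ranged from 7360 to 8247, Dup/+ libraries from 7544 to 8108 and Del/Dup libraries from 7030 to 7715. The 3 oligodendrocyte markers summed to 4234 to 5528 CPM in wt, while Del/+ libraries held 5048 to 7606, Dup/+ libraries 5023 to 5762 and Del/Dup libraries 4971 to 6098. For the 4 choroid plexus markers the sum was 2.43 to 31.99 CPM in wt, while Del/+ libraries held 4.59 to 1209.9, Dup/+ libraries 5.57 to 386 and Del/Dup libraries 39.3 to 1166. The part of neuronal and oligodendrocyte content in the results below was not tested. In bulk tissue, fewer cells of a type and less RNA per cell cannot be told apart.

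Sez6l2 followed the number of copies. It stood at 483.1, 554.3 and 599.5 CPM (lowest, median and highest) in the 6 wt libraries. In Del/+ replicates 1 to 4 it stood at 272.9, 231.4, 257.1 and 221.6 CPM. In Dup/+ replicates 1 to 5 it stood at 780.3, 762.0, 756.9, 846.6 and 736.4 CPM. These 3 groups did not overlap: every Del/+ library lay below every wt library, and every Dup/+ library lay above every wt library, orders found in 2.7% and 0.674% of tested genes. In Del/Dup replicates 2 to 5 it stood at 374.9, 516.0, 463.0 and 484.1 CPM, with replicates 2 and 4 below the wt range and replicates 3 and 5 inside it. All Del/Dup libraries lay above all Del/+ libraries, an order found in 2.38% of tested genes, and below all Dup/+ libraries, found in 2.07%. Group means were 553.7 ± 42.1 CPM in wt (SD, n = 6), 245.7 ± 23.5 in Del/+ (n = 4), 776.4 ± 42.2 in Dup/+ (n = 5) and 459.5 ± 60.5 in Del/Dup (n = 4).

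**Figure D1:**
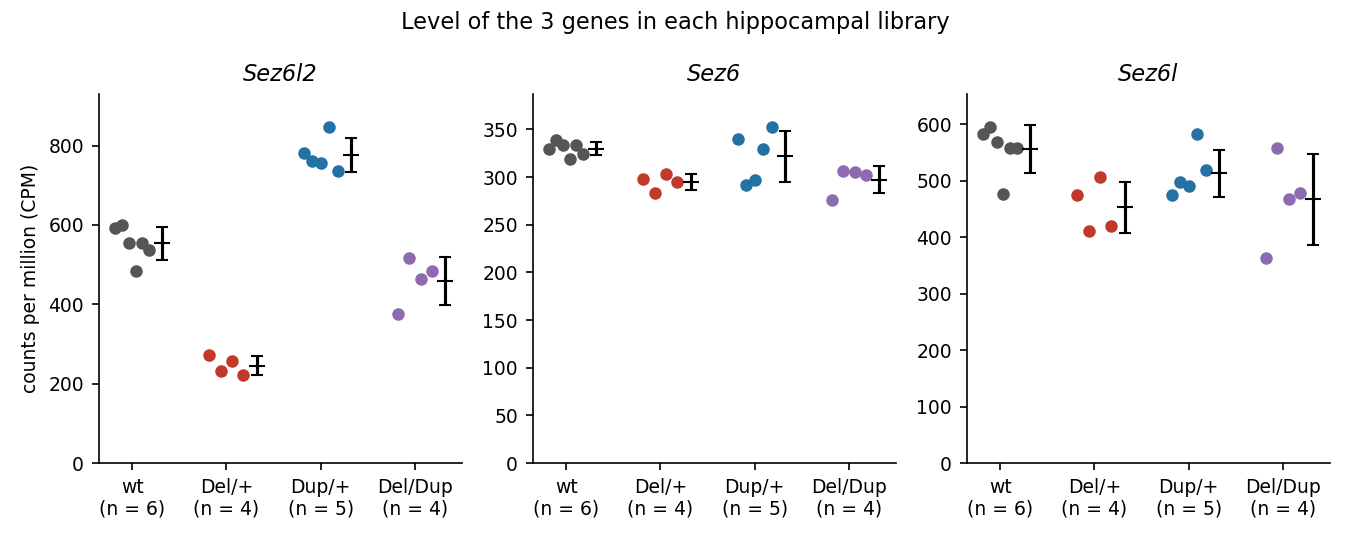
Level in CPM of Sez6l2, Sez6 and Sez6l (1 panel each, each with its own linear axis from 0) in the 19 libraries by genotype, with the mean and SD of each group in black beside the points. Sez6l2 separates into Del/+ (221.6 to 272.9), the 2-copy groups (374.9 to 599.5) and Dup/+ (736.4 to 846.6), while the groups of Sez6 and Sez6l lie close together, and levels are not to be compared between panels because genes differ in length.

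The log2 fold change of Sez6l2 was -1.17 in Del/+ against wt (SE 0.0809, edgeR adjusted p = 1.04e-08) and 0.49 in Dup/+ against wt (SE 0.0726, edgeR adjusted p = 0.00126). It was thus 1 of 119 genes called in the first comparison, 0.771% of those tested, and 1 of 42 in the second, 0.272%. Del/Dup against wt gave -0.27 (SE 0.0783, edgeR adjusted p = 0.154), which did not pass the test, in a comparison that called 14 genes, 0.0907% of those tested. Between carriers, Sez6l2 was higher in Dup/+ than in Del/+ by 1.66 (SE 0.0846, edgeR adjusted p = 2.51e-11, with 0.784% of genes called). It was higher in Del/Dup than in Del/+ by 0.90 (SE 0.0861, edgeR adjusted p = 1.72e-06, 0.175% called). In Del/Dup against Dup/+ the fold change was -0.76 (SE 0.0820, edgeR adjusted p = 2.36e-05, 0.317% called). A slope on the number of copies gave 0.81 per copy on the log2 scale (SE 0.0648, edgeR adjusted p = 1.99e-08, 0.576% called). The comparisons against wt share the wt libraries. Among libraries of low multi-mapped share, the 1 Del/+ library, replicate 4, gave -1.32 against wt, a value with no replicate of its own, and Dup/+ gave 0.49 (edgeR adjusted p = 0.000331), and among those of high share Del/Dup against Del/+ gave 0.86 (edgeR adjusted p = 0.0141). Under the other label of wt replicate 5, Dup/+ differed from wt by 0.42 and was not called (edgeR adjusted p = 0.135).

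Read against the ratio of copies, the Sez6l2 level per copy of the interval was 276.8 CPM in wt, 245.7 in Del/+, 258.8 in Dup/+ and 229.7 in Del/Dup. The 95% interval of the log2 fold change was -1.34 to -1.003 in Del/+ against wt, and its upper end, at a level 0.499 times that of wt, lay just past the copy ratio of 0.5. In Dup/+ against wt the interval was 0.34 to 0.64 and held the copy ratio of 1.5, or 0.58 on the log2 scale. In Del/Dup against wt the interval was -0.43 to -0.11 and did not hold 0, as for 16.2% of all tested genes (unadjusted edgeR p under 0.05). In Del/Dup against Dup/+ it was -0.928 to -0.586 and ended just short of the copy ratio, -0.585 on the log2 scale. The other 2 comparisons, of Dup/+ and of Del/Dup against Del/+, held their copy ratio. With a term for the multi-mapped share, which ties Del/Dup to wt through Del/+ replicate 4 alone, Sez6l2 in Del/Dup against wt differed by -0.47 (edgeR adjusted p = 0.266). With the choroid plexus gene Ttr as a covariate that difference was -0.18 (edgeR adjusted p = 0.693). Without Del/Dup replicate 3 the difference of Del/Dup from wt was -0.32 and called (edgeR adjusted p = 0.0497). That fit called 1.38% of all tested genes, against 0.0907% with all libraries. Without Del/Dup replicate 2 the difference was -0.18 (edgeR adjusted p = 0.505). If the effects of the deletion and the duplication on the wt level are added, 468.5 CPM results, beside the 459.5 ± 60.5 CPM measured in Del/Dup.

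**Figure D2:**
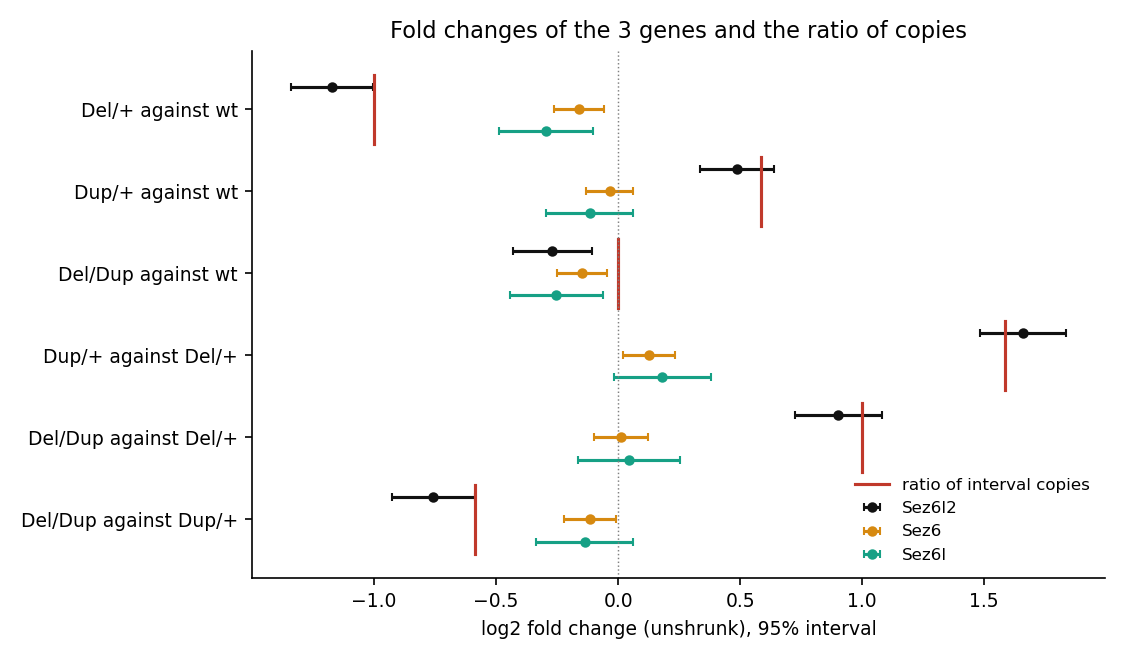
Log2 fold change (x axis, unshrunk) with its 95% interval for Sez6l2 (black), Sez6 (orange) and Sez6l (green) in the 6 comparisons of genotypes, with a red line at the log2 ratio of interval copies, which applies to Sez6l2 alone. The Sez6l2 interval holds the red line in 3 of the 6 comparisons, ends just short of it in Del/+ against wt and in Del/Dup against Dup/+, and lies below it in Del/Dup against wt. In Del/+ and in Del/Dup against wt the intervals of both paralogs lie below 0. Of all tested genes, 18.4% and 16.2% had an unadjusted edgeR p under 0.05 in these comparisons.

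The genes beside Sez6l2 in the interval were Asphd1, a putative aspartate beta-hydroxylase, and Cdipt, the phosphatidylinositol synthase. Asphd1 stood at 14.3 ± 2.23 CPM in wt (SD, n = 6) at 7.504 ± 0.0890 in Del/+ (n = 4), at 20.3 ± 2.45 in Dup/+ (n = 5) and at 15.3 ± 2.56 in Del/Dup (n = 4). Its log2 fold change was -0.93 in Del/+ (edgeR adjusted p = 8.98e-05), 0.49 in Dup/+ (edgeR adjusted p = 0.0445) and 0.10 in Del/Dup (edgeR adjusted p = 0.676). Cdipt stood at 103.9 ± 6.77 CPM in wt, at 50.1 ± 3.21 in Del/+, at 145.1 ± 5.22 in Dup/+ and at 95.03 ± 8.88 in Del/Dup. Its log2 fold change was -1.05 in Del/+ (edgeR adjusted p = 5.7e-10), 0.48 in Dup/+ (edgeR adjusted p = 5.39e-05) and -0.13 in Del/Dup (edgeR adjusted p = 0.290). Of the 27 interval genes tested, 3 had a lower value than Sez6l2 in Del/+ and 23 a higher one, around a median of -1.01. In Dup/+ 8 had a lower value and 18 a higher one (median 0.51), and in Del/Dup 3 had a lower value and 23 a higher one (median -0.06). Sez6l2 was thus near the low end of the interval in both groups that carry the deletion.

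Sez6 stood at 319.1, 331.3 and 338.4 CPM (lowest, median and highest) in wt. In Del/+ replicates 1 to 4 it stood at 298.2, 283.3, 303.0 and 295.0 CPM, and in Del/Dup replicates 2 to 5 at 276.2, 306.0, 305.3 and 301.6 CPM. Every library of both groups lay below every wt library, an order found in 2.7% of tested genes for Del/+, as above, and in 1.22% for Del/Dup. In Dup/+ replicates 1 to 5 it stood at 340.3, 291.4, 297.1, 328.9 and 352.4 CPM, with replicates 2 and 3 below the wt range and replicates 1 and 5 above it. The log2 fold change was -0.16 in Del/+ (SE 0.0491, 95% interval -0.26 to -0.06, edgeR adjusted p = 0.102). In Del/Dup it was -0.15 (SE 0.0492, 95% interval -0.25 to -0.05, edgeR adjusted p = 0.181). In Dup/+ it was -0.03 (SE 0.0459, 95% interval -0.13 to 0.06, edgeR adjusted p = 0.877). No comparison of Sez6 passed the test, and Dup/+ against Del/+ gave 0.13 (edgeR adjusted p = 0.278) and the slope 0.06 per copy (edgeR adjusted p = 0.455). DESeq2 called the difference in Del/+, with -0.16 (adjusted p = 0.0306), among 655 genes, 4.24% of those tested, where edgeR called 119. It gave an adjusted p to 9453 genes in that comparison. Sez6 in wt was the steadiest of the 3 genes, with a coefficient of variation of 2.16% against 7.61% for Sez6l2 and 7.55% for Sez6l. In Dup/+ it was the least steady, with 8.31% against 5.44% for Sez6l2 and 8.22% for Sez6l.

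Sez6l stood at 476.2, 563.2 and 595.3 CPM (lowest, median and highest) in wt. In Del/+ replicates 1 to 4 it stood at 474.5, 411.4, 506.2 and 420.5 CPM, 3 of them below the wt range. In Del/Dup replicates 2 to 5 it stood at 363.8, 558.5, 467.7 and 478.6 CPM, 2 of them below the wt range, and in Dup/+ replicates 1 to 5 at 475.7, 498.6, 490.2, 583.5 and 519.1 CPM, with 1 just below it. The groups overlapped with wt in each comparison. The log2 fold change was -0.30 in Del/+ (SE 0.0921, 95% interval -0.49 to -0.10, edgeR adjusted p = 0.106). In Del/Dup it was -0.25 (SE 0.0921, 95% interval -0.44 to -0.06, edgeR adjusted p = 0.210), and -0.15 without Del/Dup replicate 2, the lowest library (edgeR adjusted p = 0.633). In Dup/+ it was -0.12 (SE 0.0859, 95% interval -0.30 to 0.06, edgeR adjusted p = 0.721). No comparison of Sez6l passed the test, though DESeq2 called Del/+ against wt with -0.29 (adjusted p = 0.0332), as did edgeR without Del/Dup replicate 2 (-0.29, adjusted p = 0.0438). That library is in neither group compared. Without it edgeR called 2.16% of tested genes in Del/+ against wt, and with all libraries 0.771%. Neither paralog was measured above wt on average in any carrier group, and in Del/+ the intervals of both ended below 0, at 0.960 times the wt level for Sez6 and 0.930 times for Sez6l. An interval without 0 corresponds to an unadjusted edgeR p under 0.05. Of all tested genes, 18.4% had this in Del/+ and 16.2% in Del/Dup, in either direction. A term for high against low multi-mapped share sets Del/+ against wt through Del/+ replicate 4 alone. With it, Del/+ against wt gave -0.16 for Sez6 with a wider SE of 0.0848, under which 0 is no longer excluded. For Sez6l it gave -0.40 (SE 0.159). With the same term the slope per copy was 0.018 for Sez6 (edgeR adjusted p = 0.95) and 0.020 for Sez6l (edgeR adjusted p = 0.979), against 0.06 and 0.08 without it. Set side by side, Del/Dup with 2 copies of Sez6l2 against Del/+ with 1 copy gave 0.01 for Sez6 (95% interval -0.10 to 0.12) and 0.04 for Sez6l (95% interval -0.17 to 0.25). Among libraries of low multi-mapped share, the same Del/+ replicate 4, without a replicate of its own, gave -0.16 for Sez6 and -0.40 for Sez6l against wt. This repeats the values with the term and is not a separate check. With Ttr as a covariate, Del/Dup against wt gave -0.12 for Sez6 and -0.22 for Sez6l (edgeR adjusted p = 0.693 for both). The term for the multi-mapped share gave -0.15 for Sez6 (edgeR adjusted p = 0.584) and -0.40 for Sez6l (edgeR adjusted p = 0.421) there. Those 2 values are also tied to wt through Del/+ replicate 4 alone.

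Within a wt library, Sez6l and Sez6l2 stood in a nearly fixed ratio, which shifted with the number of copies in Del/+ and Dup/+. The log2 ratio of Sez6l to Sez6l2, counted on reads and so without account of length, was -0.02 to 0.05 across the 6 wt libraries, with an SD of 0.0308, against 0.113 and 0.114 for log2 CPM of Sez6l2 and Sez6l. In Del/+ replicates 1 to 4 it was 0.80, 0.83, 0.98 and 0.92, a shift of 0.88 from wt (exact permutation p = 0.00476, the smallest this design allows, adjusted p = 0.00714). In Dup/+ replicates 1 to 5 it was -0.71, -0.61, -0.63, -0.54 and -0.50, a shift of -0.61 (exact permutation p = 0.00216, also the smallest possible, adjusted p = 0.00649). In Del/Dup replicates 2 to 5 it was -0.04, 0.11, 0.01 and -0.02, a shift of 0.01 (exact permutation adjusted p = 0.776). Del/+ and Dup/+ did not overlap with wt, and Del/Dup lay around it. The ratio of Sez6 to Sez6l2 shifted by 1.01 in Del/+ (exact permutation adjusted p = 0.00714) and by -0.53 in Dup/+ (exact permutation adjusted p = 0.00649). In Del/Dup it shifted by 0.13 (exact permutation adjusted p = 0.114). The copy ratios alone would give 1 in Del/+, -0.58 in Dup/+ and 0 in Del/Dup. The ratio of Sez6l to Sez6 shifted by -0.14 in Del/+, -0.08 in Dup/+ and -0.12 in Del/Dup (exact permutation, two-sided as above, adjusted p = 0.214, 0.264 and 0.264). The 1 Del/+ library of low multi-mapped share, replicate 4, had ratios of the same sign as the other 3 Del/+ libraries.

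**Figure D3:**
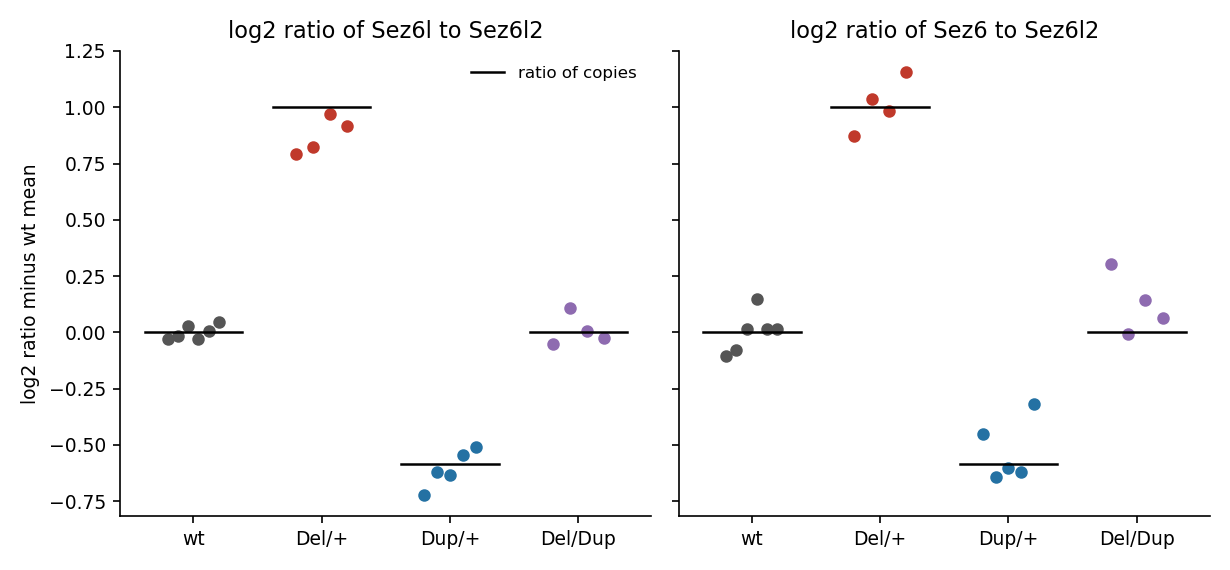
Log2 ratio of Sez6l to Sez6l2 (left) and of Sez6 to Sez6l2 (right) in each library minus the wt mean, by genotype, with a black line at the value that the ratio of interval copies alone would give. The mean of the Del/+ libraries is 0.88 in the left panel, below the line at 1, and 1.01 in the right panel. Dup/+ libraries lie near -0.58 and Del/Dup libraries around 0 in both panels, with less scatter in the left panel.

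Summed over the paralogs, Sez6 and Sez6l gave 886 ± 48.0 CPM in wt (SD, n = 6), 748 ± 52.4 in Del/+ (n = 4), 835 ± 54.7 in Dup/+ (n = 5) and 764 ± 92.8 in Del/Dup (n = 4). The sum of all 3 genes was 1440 ± 89.3 CPM in wt, 994 ± 72.4 in Del/+, 1612 ± 86.7 in Dup/+ and 1224 ± 153 in Del/Dup. The log2 sum of 3 differed from wt by -0.54 in Del/+, 0.16 in Dup/+ and -0.24 in Del/Dup, values given as a description since a sum of reads weights longer transcripts more. Sez6l2 held 38.4% ± 0.662 of the reads of the family in wt, 24.7% ± 1.08 in Del/+, 48.2% ± 1.39 in Dup/+ and 37.5% ± 0.565 in Del/Dup.

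Among animals of the same genotype, libraries with more Sez6l2 also held more Sez6l. After group means were removed, log2 CPM of the 2 genes correlated over the 19 libraries with r = 0.91 (permutation p = 0.00029, adjusted over 3 pairs 0.00087) and rho = 0.879 (permutation p = 0.00011, adjusted 0.00033). Without the 2 libraries farthest from the median of Sez6l2, which were Del/Dup replicate 2 and wt replicate 4, r was 0.82. Del/Dup replicate 2 was the lowest in its group for all 3 genes, as was wt replicate 4. Sez6l2 and Sez6 gave r = 0.45 (permutation p = 0.0367, adjusted 0.0367) and rho = 0.516 (permutation p = 0.0262, adjusted 0.0262), but r = 0.25 without the same 2 libraries. The size of this r thus depends on them, and the relation without them was not tested. Sez6 and Sez6l gave r = 0.52 (permutation p = 0.025, adjusted 0.0367) and rho = 0.558 (permutation p = 0.0194, adjusted 0.0262), with r = 0.59 without Dup/+ replicates 2 and 3. With the means of genotype and multi-mapped share removed together, over the 18 libraries this allows, r was 0.91, 0.48 and 0.53 in the same order. None of 9 relations of the 3 genes with the multi-mapped share, the share of reads on no gene or the library total reached an adjusted p under 0.05 (the smallest was 0.607).

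**Figure D4:**
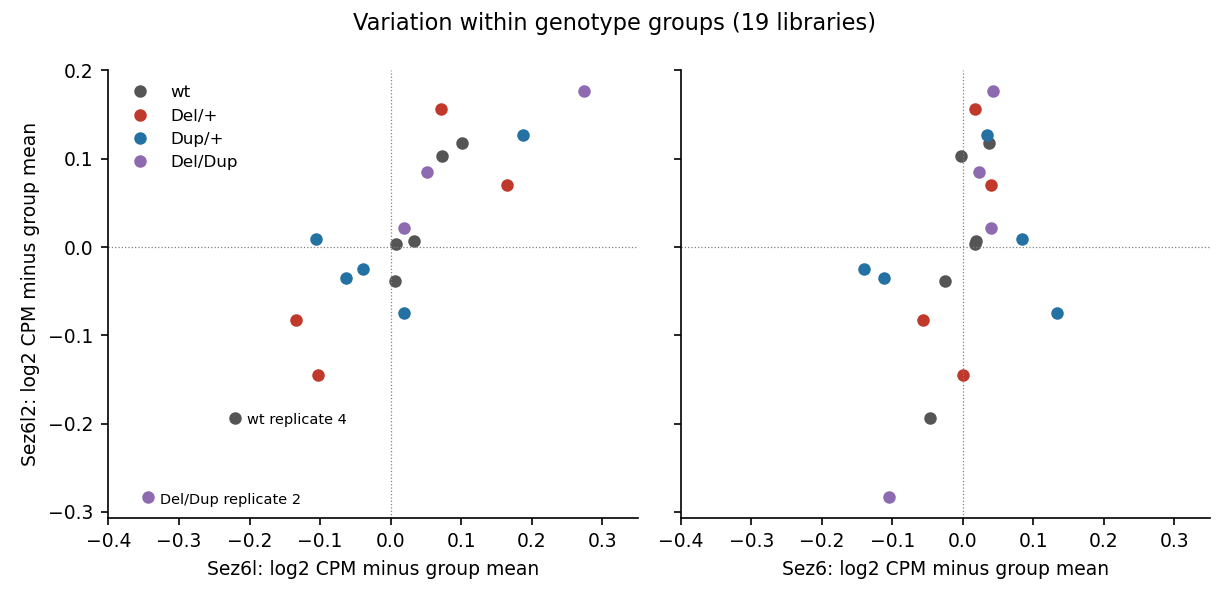
Log2 CPM of Sez6l2 minus its group mean (y axis) against that of Sez6l (left) and of Sez6 (right) in the 19 libraries, coloured by genotype. In the left panel the points rise along a line (r = 0.91) with Del/Dup replicate 2 and wt replicate 4 at its low end, and in the right panel the relation is loose (r = 0.45).

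The genes whose level was most like that of Sez6l2 within groups were Nlgn3 (r = 0.96 over 19 libraries), the postsynaptic adhesion protein neuroligin 3, Plppr2 (0.94), Mapk1ip1l (0.94), AC141969.1 (0.94) and Ap3d1 (0.93), a subunit of the AP-3 adaptor. Sez6l ranked 8 of 15439, and 16 genes had r over 0.9. For Sez6l the leading genes were Slit3 (r = 0.96), Slit1 (0.96), Dscaml1 (0.94), Plxna1 (0.94) and AABR07062799.2 (0.93). Of these, Slit1 and Slit3 are secreted axon guidance proteins and Plxna1 is a semaphorin receptor. Sez6l2 ranked 15 there, and 23 genes had r over 0.9. For Sez6 no gene reached 0.9, and Ubap2 (0.80), Sh3rf1 (0.80), Chrna2 (0.78), Ppp2r5d (0.78) and Ctdnep1 (0.76) led. With group means kept, 22 of the 30 genes most like Sez6l2 were genes of the interval list. Outside that list AABR07005779.2 (r = 0.97), AABR07070225.1 (0.92), Tesc (0.87), Tgfb1i1 (0.86) and RGD1560108 (0.85) led. Whether AABR07005779.2 lies inside the interval was not settled here. These correlations are descriptions over libraries that share genotype and processing.

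Genes that act with the family were taken from a list of 46 partners, of which 42 were tested, and none was called by edgeR in any of the 7 comparisons. At an unadjusted p under 0.05 edgeR had 8 of them in Del/+ (2 higher, 6 lower), 3 in Dup/+ (1 higher, 2 lower) and 10 in Del/Dup (3 higher, 7 lower), against 18.4%, 8.94% and 16.2% of all tested genes. With a term for the multi-mapped share, which ties Del/Dup to wt through Del/+ replicate 4 alone, the count in Del/Dup was 4, against 12% of all tested genes. The median log2 fold change was -0.03 in each of the 3 groups, beside 0.00 over all genes. The sheddase Bace1 stood at 91.9 ± 2.72 CPM in wt (SD, n = 6) and 88.5 ± 2.89 in Del/+ (n = 4), a log2 fold change of -0.05 (edgeR adjusted p = 0.529). The 5 tested subunits of gamma-secretase, the complex that cuts shed membrane stubs, had log2 fold changes of -0.01 to 0.10 in Del/+.

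Among glutamate receptor subunits, the 4 AMPA subunits had log2 fold changes of -0.16 to 0.14 in Del/+ and the 5 kainate subunits of -0.33 to 0.39. The kainate subunits Grik1 and Grik5 and the partner-list gene Csmd2, named because DESeq2 called them, went in different directions. Grik1 stood at 15.3 ± 1.90 CPM in wt (SD, n = 6) and 20.0 ± 1.76 in Del/+ (n = 4), a log2 fold change of 0.39 (edgeR adjusted p = 0.0593). Grik5 had -0.31 (edgeR adjusted p = 0.0946), and Csmd2, which encodes a large CUB and sushi protein, had -0.31 (edgeR adjusted p = 0.0861). DESeq2 called these 3 of the 42 tested partners, with adjusted p = 0.00737, 0.0258 and 0.0207, beside 4.24% of all tested genes. The 3 adducins, of which Sez6l2 binds members, had log2 fold changes of -0.14 to -0.04 in Del/+. The 5 tested complement genes had -0.34 to 0.16 and the 8 tested complement regulators -0.31 to 0.13.

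Other membrane or secreted proteins with CUB or sushi domains, a list of 20 with 18 tested, also held no called gene by edgeR in the 7 comparisons. In Del/+ 7 of the 18 had an unadjusted edgeR p under 0.05, all lower, beside 18.4% of all tested genes in either direction, and the median log2 fold change was -0.08 beside 0.00 over all genes. The number was 1, lower, in Dup/+ (8.94% of all genes) with a median of -0.03. In Del/Dup it was 6, of which 5 were lower (16.2% of all genes), with a median of -0.11. With a term for the multi-mapped share the count was 4 in Del/+, against 13.1% of all tested genes, 2 in Dup/+ (9.02%) and 4 in Del/Dup (12%). The counts in Del/+ and Del/Dup then rest on Del/+ replicate 4 as the only link to wt. The kainate receptor auxiliary subunit Neto1 stood at 164.6 ± 24.1 CPM in wt (SD, n = 6) and 130.9 ± 23.5 in Del/+ (n = 4), a log2 fold change of -0.33 (edgeR adjusted p = 0.127), and was the 1 gene of this list that DESeq2 called (adjusted p = 0.0484), 1 of 18 beside 4.24% of all tested genes.

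**Figure D5:**
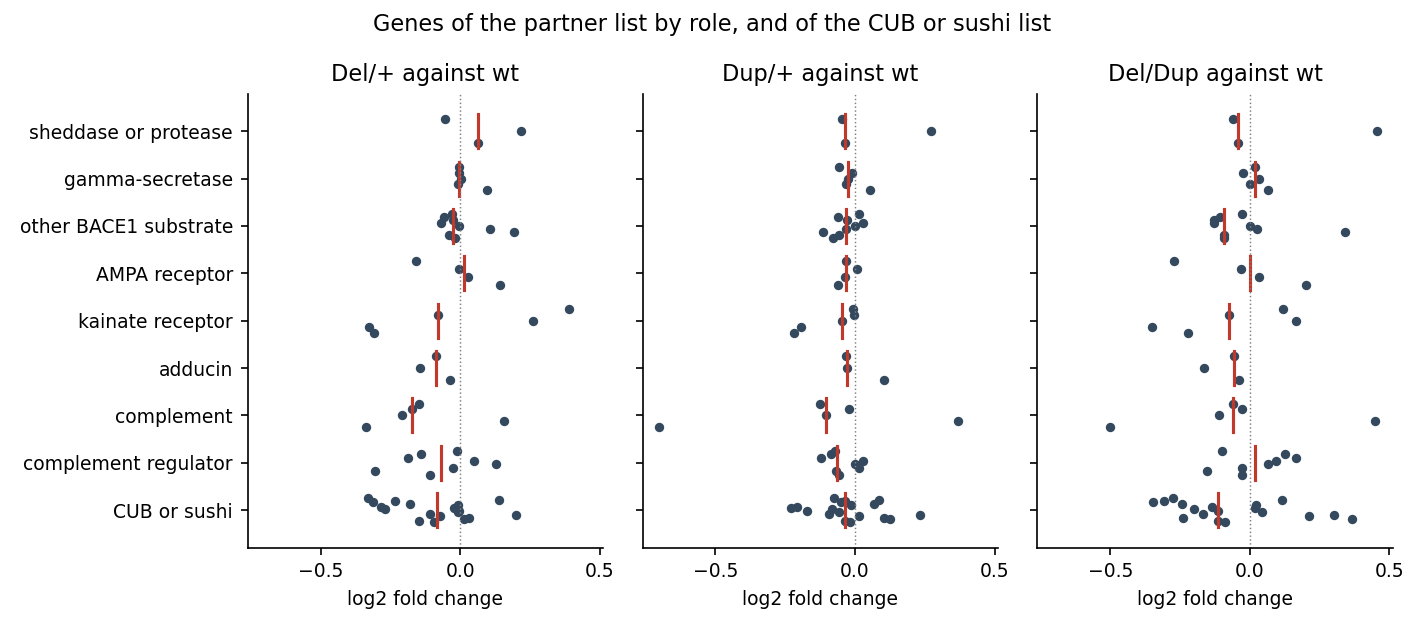
Log2 fold change against wt (x axis) of the tested genes of the partner list, in rows by role, and of the CUB or sushi list in the bottom row, in Del/+, Dup/+ and Del/Dup, with the median of each row in red. No gene in it was called by edgeR, and most values lie between -0.4 and 0.4.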

How the data were processed

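Hippocampal RNA was prepared by the authors with a stranded total RNA kit and read as single-end stretches of 50 bases; the protocol of the labels describes rRNA removal, while the molecule field names polyA RNA, and the difference was not settled here. The submitters' processing notes name bcl2fastq 2.17.1.14, HISAT2, HTSeq, R 3.6, DESeq2 and the rn6 build; the versions of HISAT2 and HTSeq and the strand setting are not given in the sources used here. Deposited were unnormalized counts of reads for each Ensembl gene, 1 library per animal. Members and lists were chosen with earlier results of these data known.

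Counts of the 15440 genes that passed filterByExpr were fitted in edgeR 4.0.16 (R 4.3.3, limma 3.58.1) with all 19 libraries in 1 quasi-likelihood model, a mean per group, TMM scaling and no covariate. Fold changes use a prior count of 2, intervals the unshrunk coefficients, and a call is an adjusted p under 0.05 (Benjamini-Hochberg over all tested genes). The script was tested on simulated data. CPM is per TMM-scaled library size. Library pairs of a group differed by more than sampling noise (chi-square per degree of freedom 3.51 to 59.2 over 37 pairs), so each library was 1 replicate; p-values measure only the spread between these animals. Ratios were tested by two-sided exact permutation, and correlations by 100000 permutations within groups. Multi-mapped share above 55% defined high libraries, and the term for the multi-mapped share marked high against low libraries, not the share itself. Named genes are the 3 members, their interval neighbours Asphd1 and Cdipt, any list gene called by edgeR, and the 5 genes most like each member (for Sez6l2 also the 5 outside the interval list); the genes that DESeq2 called, and Bace1, were named after their values were seen. Alternatives were DESeq2 1.42.0, limma voom, other scalings, no count filter, a replicate block, a term for the multi-mapped share, Ttr as a covariate, only the groups compared, the other label of wt replicate 5, and leaving out each replicate. Fits within libraries of low or of high multi-mapped share were chosen after seeing the data.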

Additional observations from a re-analysis of the deposited data

Results flagged for a closer look

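A library was set apart when its gap to the nearest of its group exceeded the 95% critical value of Dixon for that group size. This was the case for 4 of 32 groups of values, while chance gives about 1 in 20 for a single group. The groups are not independent, since the ratios and sums are built from the same 3 genes, so the 2 rates cannot be compared directly. Sez6 in Del/Dup replicate 2 stood at 276.2 CPM, with the other 3 libraries at 301.6 to 306.0. Sez6l in wt replicate 4 stood at 476.2 CPM, with the other 5 at 557.5 to 595.3. In the same wt library the log2 ratio of Sez6l to Sez6 was 0.58, with the others at 0.74 to 0.83, and the log2 summed CPM of Sez6 and Sez6l was 9.64, with the others at 9.78 to 9.87. The log2 ratio of Sez6l to Sez6l2 in wt replicate 4 was -0.02, inside the range of the other wt libraries.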

How the results depend on the processing

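Of 1122 alternative values of 47 results, 1101 kept their direction and side of the threshold or moved by less than the replicate spread, 1 lost and 6 gained a call, 8 moved and 6 reversed. Sez6l2 in Del/+ against wt was called in all 30 alternatives (-1.32 to -1.12) and in Dup/+ in 29 of 30. DESeq2 gained Sez6 (-0.16) and Sez6l (-0.29) in Del/+ and called 3 partners and 1 gene of the CUB or sushi list there, among 655 genes (4.24% of those tested, against 0.771% for edgeR). With wt replicate 5 counted as Dup/+, Sez6l2 in Dup/+ was 0.42 (edgeR adjusted p = 0.135), and without the count filter Sez6 in Del/Dup against Del/+ was -0.0041 (log2). The cause was not tested.

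Leaving out 1 library gave ranges of -0.35 to -0.25 for Sez6l in Del/+ (called without Del/Dup replicate 2), -0.34 to -0.15 for Sez6l in Del/Dup, -0.32 to -0.18 for Sez6l2 in Del/Dup (called without Del/Dup replicate 3), -0.068 to 0.00019 for Sez6 in Dup/+, -0.0047 to 0.043 for Sez6 and -0.051 to 0.14 for Sez6l in Del/Dup against Del/+, and 0 to 2 partners in Del/+ and 0 to 1 on the slope. Grik1 was the gene called on the slope without wt replicate 1 and in Del/+ without wt replicate 4 or Del/Dup replicate 2 or 3, Csmd2 in Del/+ without wt replicate 4, and Grik5 without Dup/+ replicate 4. Of all tested genes, 0.988% were called in Del/+ without wt replicate 4 and 0.765% without Dup/+ replicate 4. Without Del/Dup replicate 2 or 3 the share in Del/+ was 2.16% or 1.8%. On the slope without wt replicate 1 it was 0.59%, and in Del/Dup without Del/Dup replicate 3 it was 1.38%. Log2 ratios ranged from 0.065 to 0.17 for Sez6 to Sez6l2 in Del/Dup (0.15 without wt replicate 4, exact permutation adjusted p = 0.0317), from -0.022 to 0.030 for Sez6l to Sez6l2 in Del/Dup, and from -0.18 to -0.10 for Sez6l to Sez6 in Del/+ (-0.17 without wt replicate 4, exact permutation adjusted p = 0.0238). The summed CPM of Sez6 and Sez6l in Del/Dup differed from wt by -0.28 to -0.14 on the log2 scale, the latter without Del/Dup replicate 2.

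The replicate numbers did not pair the animals: same-numbered libraries of different groups correlated at -0.17 to 0.12 over 24 pairs, 2 of them over 0.1. The replicate block gave -1.19 for Sez6l2 in Del/+ (edgeR adjusted p = 1.23e-06) and 0.48 in Dup/+ (edgeR adjusted p = 0.013) and changed no call of Sez6l2, Sez6 or Sez6l.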
